A study of Homo sapiens with 4 samples.

Results

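The 10 genes described here make, carry, remove or sense adenosine. They are NT5E, ENPP1, NT5C2, AK1, ADK, ADA, SLC29A1, SLC29A2, ADORA2B and ADORA1, out of 28729 genes in the table, and all 10 were found by symbol. The set was selected on NT5E, which showed the largest increase after SKA3 knockdown once genes averaging fewer than 20 reads were set aside, and the other 9 were added for their roles. The contrast between knockdown and control therefore chose the set, and its values for the 10 genes are given as a description, without p-values. Where calls of the fit across all genes are counted for them, nothing is read from the count.

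RNA-seq was performed on 4 libraries of cells labelled TU-177, an established human laryngeal squamous cell carcinoma line. The 2 control libraries (NC 1 and NC 2) came from cells transduced with a lentivirus carrying a negative-control shRNA, and the 2 knockdown libraries (SKA3-KD 1 and SKA3-KD 2) from cells transduced with a lentiviral shRNA against SKA3. All cells were selected with puromycin, and the labels give neither the hairpin used nor whether the replicates were separate cultures, so the spread between replicates may be technical. The study's methods also describe siRNA and Cas9 routes to SKA3 knockdown, which the sample labels do not name.

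Adenosine outside the cell is made from ATP in steps. Ectonucleotidases cut ATP and ADP to AMP, and CD73, the protein of NT5E, removes the last phosphate at the cell surface. Equilibrative transporters then carry adenosine across the membrane, adenosine kinase returns it to AMP, adenosine deaminase turns it into inosine, and G protein-coupled receptors sense it. In tumors, CD73 is best known for the adenosine it forms, which restrains immune cells.

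The targeted gene SKA3 was at 9.40 and 9.64 FPKM in the NC libraries and at 3.77 and 4.12 FPKM in the SKA3-KD libraries. FPKM (fragments of a gene divided by its length and by the size of the library) is the unit of the table. The difference of log2(FPKM + 1), SKA3-KD minus NC, was -1.09 (standard error 0.07, limma adjusted p = 0.00806, n = 2 each). Without NC 1 the limma adjusted p was 0.0660 and without NC 2 it was 0.0600. The low values are whole multiples of 1 read, which gave library sizes between 9015056 and 11966130 reads. Of 10 squamous epithelial markers, 5 had a mean under 1 FPKM, namely KRT5, KRT6A and KRT14 (at most 0.103 FPKM), TP63 (0.348 to 0.580) and the epithelial cadherin CDH1 (0.149 to 0.447), while SFN, DSP, EGFR and KRT17 were at 29.4 FPKM or more in every library, and DSG3 was not analysed here. These 5 markers go against the labelled squamous cell type, and whether the cells are the line named in the labels was not tested. The summed level of 8 fibroblast markers, 7 of them in the table, was 15.4 to 15.8 FPKM in NC and 8.90 to 9.61 in SKA3-KD, with COL1A2 and FAP at or near 0. DCN was at 8.40 and 8.36 FPKM in NC and at 2.48 and 2.35 in SKA3-KD, and without it the other 6 summed to 7.01 and 7.43 FPKM in NC and to 6.42 and 7.26 in SKA3-KD, which overlap. PDGFRB was at 2.88 and 2.46 FPKM in NC and at 3.19 and 4.13 in SKA3-KD, the opposite direction to DCN. COL1A1 went the way of DCN, from 3.22 and 3.99 FPKM in NC to 2.71 and 2.66 in SKA3-KD. COL3A1 did too, from 0.797 and 0.765 to 0.476 and 0.361, and LUM was lower on 6 reads or fewer. Of 4 endothelial markers, 2 were in the table, and they summed to at most 0.0968 FPKM in a library. Of 6 blood cell markers, 5 were in the table, and they summed to at most 1.43 FPKM, with HBB at 0 in all libraries. Fibroblasts also express CD73, and the part of such cells in the values below was not tested. In bulk RNA, fewer cells of a type and less RNA per cell cannot be told apart.

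NT5E (ENSG00000135318) encodes CD73. The NC libraries held 1.37 and 1.38 FPKM of it, and SKA3-KD 1 and SKA3-KD 2 held 7.68 and 8.40. Both knockdown libraries were far above both control libraries. The means were 1.38 ± 0.00541 FPKM in NC and 8.04 ± 0.510 in SKA3-KD (SD, n = 2 each), 5.84 times as high. On the log2(FPKM + 1) scale the difference was 1.93 (standard error 0.09). The values stood on 66 and 50 reads in NC and on 314 and 398 reads in SKA3-KD, at a gene length of 4017 bases that makes all 4 read numbers whole. With an exact Poisson interval for counting error alone, NC 2 lay between 1.02 and 1.82 FPKM at 95% confidence and SKA3-KD 1 between 6.85 and 8.58. Across genes, replicates differed by more than counting error (chi-square per degree of freedom 4.03 in NC and 3.97 in SKA3-KD). As NT5E was also chosen on this contrast, nothing is read from these intervals lying apart. Among the 11254 genes that averaged 1 FPKM and 20 reads or more, NT5E ranked first, which is the rule that chose it. OLR1, the gene just below NT5E, had a log2 difference of 1.56.

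**Figure D1:**
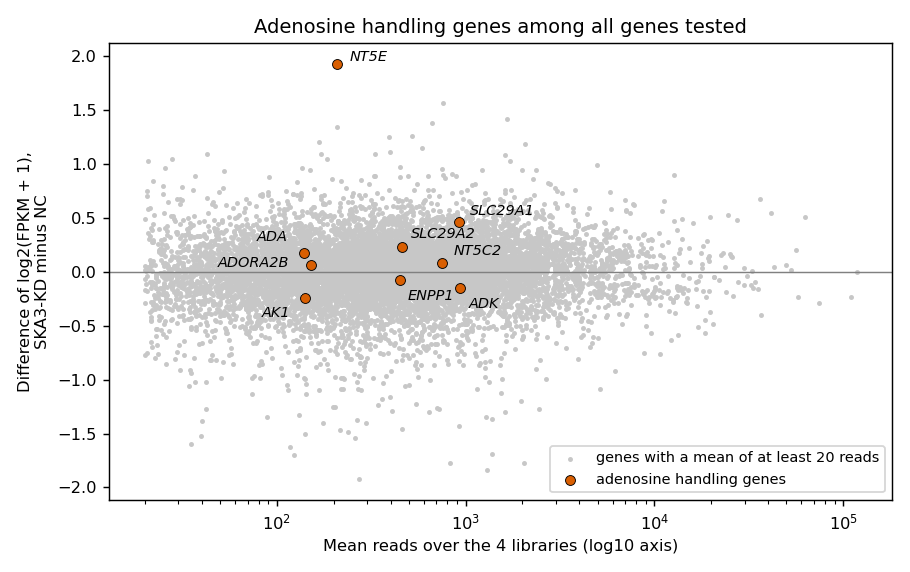
Difference of log2(FPKM + 1), SKA3-KD minus NC, against the mean reads of each gene over the 4 libraries on a log10 axis. Grey points are the 11254 genes that averaged 1 FPKM and 20 reads or more, orange points the 9 adenosine handling genes among them. NT5E stands alone at 1.93, and the other 8 lie between -0.24 and 0.46.

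The sequences around the starts of NT5E and SLC29A1, the pair of genes with the largest differences of the set, are shown because their RNA moved most. They are from RefSeq (GRCh38.p14) and run from 250 bases before to 50 bases after the start, 5′ to 3′ on the gene's own strand. Capitals mark GGGCGG (the SP1 box), TGACG (the core of a cyclic AMP response element), CACGTG (the E-box, the site of Myc proteins), ACGTG (the core of a hypoxia response element, which lies inside the E-box), TGANTCA (AP-1) and TATAAA, searched on both strands. Of the 10 genes, 9 had entries in this table, 14 entries in all, and SLC29A2 had none. The NT5E entry is chr6:85449833-85450132 on the plus strand, and the SLC29A1 entries are chr6:44219365-44219664 and chr6:44223345-44223644, both on the plus strand.
NT5E: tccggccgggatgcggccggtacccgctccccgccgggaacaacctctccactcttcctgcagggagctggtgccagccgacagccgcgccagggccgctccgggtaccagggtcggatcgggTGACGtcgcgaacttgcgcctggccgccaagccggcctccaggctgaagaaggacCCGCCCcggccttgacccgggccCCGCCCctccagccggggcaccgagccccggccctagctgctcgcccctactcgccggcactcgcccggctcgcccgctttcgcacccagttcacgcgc
SLC29A1 start 1: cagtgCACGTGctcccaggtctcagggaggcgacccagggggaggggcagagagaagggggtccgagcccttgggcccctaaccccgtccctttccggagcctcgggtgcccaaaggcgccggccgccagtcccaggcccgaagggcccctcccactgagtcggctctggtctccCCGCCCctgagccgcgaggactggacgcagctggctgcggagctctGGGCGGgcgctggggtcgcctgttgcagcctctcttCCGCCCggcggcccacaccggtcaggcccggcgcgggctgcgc
SLC29A1 start 2: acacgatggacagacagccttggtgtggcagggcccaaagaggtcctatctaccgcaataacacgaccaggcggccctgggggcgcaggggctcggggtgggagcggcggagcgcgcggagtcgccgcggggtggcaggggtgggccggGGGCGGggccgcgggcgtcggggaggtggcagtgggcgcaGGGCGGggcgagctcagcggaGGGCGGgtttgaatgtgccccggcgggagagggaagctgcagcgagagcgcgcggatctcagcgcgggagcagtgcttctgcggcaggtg

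The NT5E window is rich in G and C (75.0% against a median of 58.7% over 35116 promoters) and holds 37 CpG dinucleotides (median 14). Of the set, ADA (79.3%, 47 CpG) and ADORA2B (75.7%, 41 CpG) were richer in G and C, and the other windows less so. The NT5E window has 2 SP1 boxes and 1 TGACG, and no match to the other letters. An SP1 box is in 45% of all promoters of this length and TGACG in 24.6%, so neither sets NT5E apart. The first SLC29A1 window has 3 SP1 boxes and 1 E-box, the E-box being in 7.26% of all promoters and ACGTG in 21.4%. The second has 3 SP1 boxes alone. TGANTCA is in 7.71% of promoters and TATAAA in 11.5%, and neither was in these 3 windows. Such matches are descriptions of letters and not sites of binding.

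The other genes of the set that form, convert or cleave AMP had log2 differences between -0.24 and 0.08. ENPP1, an ectoenzyme that splits ATP into AMP and pyrophosphate, was at 5.37 and 5.10 FPKM in NC and at 5.21 and 4.62 in SKA3-KD. Its groups overlapped, and the log2 difference was -0.08 (standard error 0.09). NT5C2, a cytosolic 5′-nucleotidase that prefers IMP and GMP, was at 9.14 and 9.44 FPKM in NC and at 10.3 and 9.51 in SKA3-KD. Both SKA3-KD values were higher than the NC values, NC 2 and SKA3-KD 2 nearly meeting, and the log2 difference was 0.08 (standard error 0.07). AK1, adenylate kinase 1, which trades phosphates between ATP, ADP and AMP, was at 5.64 and 5.07 FPKM in NC. In the knockdown it was at 3.76 in SKA3-KD 1 and 5.09 in SKA3-KD 2. SKA3-KD 1 alone was low, so the log2 difference of -0.24 (standard error 0.14) rested on 1 library.

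The next largest difference of the set was in a transporter. SLC29A1, the equilibrative nucleoside transporter ENT1, which moves adenosine down its gradient in either direction, was at 20.6 FPKM in NC 1 and 21.3 in NC 2. It was at 30.02 in SKA3-KD 1 and 28.3 in SKA3-KD 2, above both controls. The means were 21.0 ± 0.477 and 29.2 ± 1.197 FPKM (SD, n = 2 each), a ratio of 1.39 and a log2 difference of 0.46 (standard error 0.06). SLC29A2, the related transporter ENT2, was at 13.3 and 15.6 FPKM in NC and at 16.5 and 17.6 in SKA3-KD. The groups did not overlap, but NC 2 was nearer to SKA3-KD 1 than to NC 1. Its log2 difference was 0.23 (standard error 0.09).

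The enzymes that remove adenosine had small differences of opposite sign. ADK, adenosine kinase, was at 32.5 and 28.8 FPKM in NC and at 28.2 and 26.8 in SKA3-KD, a log2 difference of -0.15 (standard error 0.08). NC 1 was the high value, and NC 2 and SKA3-KD 1 nearly met. ADA, adenosine deaminase, was at 4.45 and 3.97 FPKM in NC and at 5.06 and 4.67 in SKA3-KD, a log2 difference of 0.17 (standard error 0.09). In each library ADK exceeded ADA, by 7.26 to 7.29 times in NC and by 5.57 to 5.74 times in SKA3-KD.

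Of the adenosine receptors analysed here, ADORA2B carried nearly all the RNA. ADORA2B, the low-affinity receptor that raises cyclic AMP, was at 4.98 and 5.91 FPKM in NC and at 6.05 and 5.42 in SKA3-KD. The groups overlapped, with a log2 difference of 0.06 (standard error 0.10). ADORA1, which lowers cyclic AMP, was at 0.0598 and 0.0529 FPKM in NC and 0.0469 and 0.0607 in SKA3-KD. These values are 3, 2, 2 and 3 reads, and with 3 reads the exact Poisson interval of NC 1 ran from 0.0123 to 0.175 FPKM, so no difference could be seen at this depth. ADORA2A was at or under 0.101 FPKM in every library. ADORA3 was not analysed here.

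**Figure D2:**
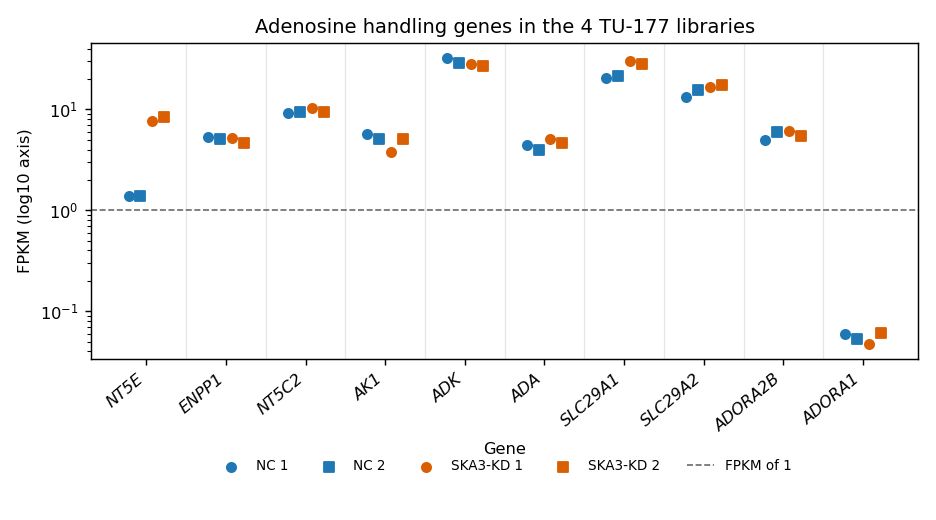
FPKM of the 10 adenosine handling genes in each library on a log10 axis, with circles for replicate 1 and squares for replicate 2. Blue points are NC, orange points SKA3-KD, and the dashed line is 1 FPKM. NT5E moved from 1.37 and 1.38 FPKM to 7.68 and 8.40, and ADORA1 lay below 0.1 FPKM in all libraries.

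Ordered by mean FPKM in NC, the genes were ADK (30.6), SLC29A1 (21.0), SLC29A2 (14.4), NT5C2 (9.29), ADORA2B (5.45), AK1 (5.36), ENPP1 (5.23), ADA (4.21), NT5E (1.38) and ADORA1 (0.0564). FPKM is per length, so these levels can be set side by side as far as the lengths used are right. The reads of NT5C2 fitted a length of 7320 bases, against 5156 in the annotation used here. Whether the value of NT5C2 is of that gene alone was not tested, so its place in the order is less certain. ADORA2B, AK1 and ENPP1 could not be ordered, since the libraries of each overlapped those of its neighbour. In SKA3-KD, SLC29A1 (29.2) stood above ADK (27.5), and NT5E (8.04) took rank 5, below NT5C2 (9.92) and above ADORA2B (5.73). ENPP1 (4.92), ADA (4.87) and AK1 (4.42) overlapped there with their neighbours. The ratio of NT5E to ENPP1 within a library was 0.256 and 0.271 in NC and 1.47 and 1.82 in SKA3-KD. For NT5E to ADORA2B it was 0.276 and 0.233 in NC and 1.27 and 1.55 in SKA3-KD. The ratio of SLC29A1 to ADK was 0.635 and 0.739 in NC and 1.06 in both SKA3-KD libraries.

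Genes were tested with limma over the 12645 genes averaging 1 FPKM or more, of which 6.16% were higher and 6.11% lower in SKA3-KD at an adjusted p-value under 0.05. ADORA1 did not reach that level, and of the remaining 9 genes NT5E and SLC29A1 were past the threshold as higher, none as lower and 7 not at all. The same contrast chose the set. Both SKA3-KD libraries lay on one side of both NC libraries in 6 of the 9, and in 61.6% of all genes tested. The median log2 difference of the 8 genes without NT5E was 0.07, beside 0.01 over all genes tested. SLC29A1 was not past the threshold without the filter on low FPKM or when any 1 of the 4 libraries was left out. With 1 library left out, its log2 difference was between 0.42 and 0.50. In 6 of the 10 genes, exons share bases with another gene of the table in the annotation used here (ADA, ADK, AK1, SLC29A2, ENPP1 and NT5C2), and whether strand was used in counting is not stated, so part of their reads may belong to those genes. NT5E, SLC29A1, ADORA1 and ADORA2B had no such overlap.

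Around these 10, a further 89 genes of ATP release, nucleotide cleavage, transport, purine salvage and nucleotide sensing were listed by role. Exons of some of the 89 also share bases with other genes, which is not stated for each one below. Of the 89, 77 were in the table and 48 were tested, and 5 rose and 9 fell in SKA3-KD past an adjusted p-value of 0.05 (limma, over all genes tested). The median log2 difference of the 48 was 0.02. As shares of those tested these counts are to be set against 6.16% and 6.11% over all genes. The count depended on the libraries and settings. It was 0 without NC 1, 0 without NC 2, 0 without SKA3-KD 1 and 4 without SKA3-KD 2, and 2 without the filter on low FPKM (PANX1 and P2RY6).

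Of 6 other tested enzymes that act on nucleotides outside the cell, 4 fell and none rose past the threshold. Over all genes tested, 6.11% fell and 6.16% rose. ALPI, ALPP and ALPG among the 4 may share reads, so nothing is read from the count. ALPI, the intestinal alkaline phosphatase, which like CD73 can take the phosphate from AMP, was at 273 and 304 FPKM in NC and at 145 and 158 in SKA3-KD. Its log2 difference was -0.92 (standard error 0.08, limma adjusted p = 0.0100). ALPP, the placental form, fell from 130 and 136 FPKM to 109 and 110 (log2 difference -0.28, limma adjusted p = 0.0384), and ALPG, the germ cell form, from 11.1 and 12.8 FPKM to 5.68 and 7.11 (-0.81, limma adjusted p = 0.0238). These 3 genes are related in sequence, so how reads were shared out among them is uncertain. ALPL, the tissue-nonspecific form, was at 188 and 206 FPKM in NC and at 179 and 181 in SKA3-KD, not past the threshold (limma adjusted p = 0.242). ENTPD2, which cuts ATP to ADP, was at 3.94 and 4.13 FPKM in NC and at 1.87 and 1.80 in SKA3-KD, and fell by 0.83 on the log2 scale (limma adjusted p = 0.0148). ENTPD8, of the same family, was at 0.884 and 1.33 FPKM in NC and 0.173 and 0.209 in SKA3-KD, on 30, 34, 5 and 7 reads, and lay below the level tested. ENTPD1, or CD39, the usual partner of CD73, was at 1.26 and 1.03 FPKM in NC and at 1.44 and 1.35 in SKA3-KD (limma adjusted p = 0.506). Its exons overlap ENTPD1-AS1 on the other strand. Its reads fitted a length of 14587 bases, against 6975 in the annotation used here.

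**Figure D3:**
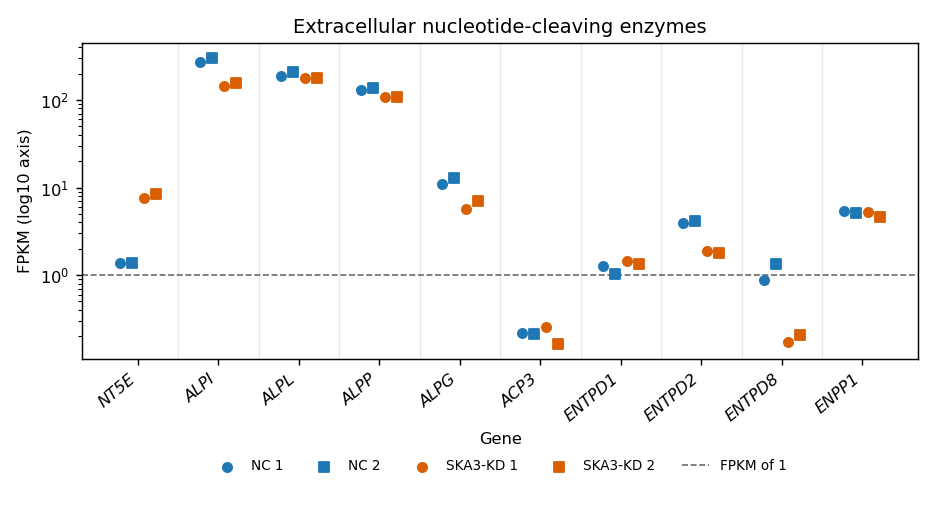
FPKM of enzymes that cleave nucleotides outside the cell in each library on a log10 axis, with blue points for NC, orange points for SKA3-KD, circles for replicate 1 and squares for replicate 2. NT5E is higher in SKA3-KD, while ALPI, ALPG and ENTPD2 are lower, and ENPP1 overlaps between the groups.

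Of 5 tested genes of ATP release, PANX1 and LRRC8A rose and ANKH fell, beside 6.16% and 6.11% of all genes tested. PANX1, a channel through which cells can release ATP, was at 13.01 and 12.6 FPKM in NC and at 20.5 and 19.9 in SKA3-KD (log2 difference 0.62, standard error 0.06, limma adjusted p = 0.0115). LRRC8A, a subunit of the volume-regulated anion channel, was at 10.7 and 11.7 FPKM in NC and at 14.3 and 15.2 in SKA3-KD (0.37, limma adjusted p = 0.0411). ANKH, a membrane protein of ATP and pyrophosphate export, was at 19.1 and 19.5 FPKM in NC and at 15.1 and 15.8 in SKA3-KD (-0.31, limma adjusted p = 0.0398). In these 3 genes the groups did not overlap, which held for 61.6% of all genes tested.

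Receptors for ATP and other nucleotides were mostly low, with 4 of 11 in the table tested. Of these, 2 fell, beside 6.11% of all genes tested. P2RY6, a receptor for UDP, was at 8.53 and 9.10 FPKM in NC and at 3.83 and 3.84 in SKA3-KD (log2 difference -1.02, standard error 0.07, limma adjusted p = 0.00812). P2RY2, a receptor for ATP and UTP, was at 3.30 and 3.99 FPKM in NC and at 2.09 and 2.02 in SKA3-KD (-0.60, limma adjusted p = 0.0364). In both the groups did not overlap, which held for 61.6% of all genes tested. P2RY11 (log2 difference 0.06) and P2RX5 (0.18) did not pass the threshold.

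SLC29A4, a transporter of monoamines and, in acid, of adenosine, was at 6.05 and 6.60 FPKM in NC and at 2.62 and 3.62 in SKA3-KD. It fell by 0.84 on the log2 scale (standard error 0.14, limma adjusted p = 0.0271), the opposite direction to SLC29A1, and its exons overlap TNRC18 on the other strand. SLC29A3, the lysosomal member, was at 1.58 and 1.62 FPKM on average in NC and SKA3-KD (log2 difference 0.02). The concentrative transporters SLC28A1 and SLC28A3 were at or under 0.0900 FPKM in every library, and SLC28A2 was not analysed here.

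Inside the cell, AHCY and APRT rose. AHCY, which frees adenosine from S-adenosylhomocysteine, was at 48.9 and 51.0 FPKM in NC and at 64.8 and 65.6 in SKA3-KD (log2 difference 0.38, standard error 0.06, limma adjusted p = 0.0225), and its exons overlap AL035458.2 on the same strand. APRT, which salvages adenine to AMP, was at 55.2 and 54.1 FPKM in NC and at 69.5 and 65.9 in SKA3-KD (0.30, limma adjusted p = 0.0364). In the same lists, MAT2A (-0.22), HPRT1 (0.07) and GDA (-0.06) did not pass the threshold. None of the 4 tested 5′-nucleotidases beyond NT5C2 passed it, NT5C being at 24.6 FPKM, NT5C3A at 17.7 and NT5C3B at 16.7 on average in NC. None of the 6 tested adenylate kinases and AMP deaminases beyond AK1 passed it either, AK6 being at 25.8 FPKM in NC. With 6.16% higher and 6.11% lower over all genes tested, nothing is read from lists this short. The reads of AK6 fitted a length of 4050 bases, against 2162 in the annotation used here. Whether its value is of AK6 alone was not tested. Of the other deaminases, ADAL, an enzyme related to ADA, had a log2 difference of 0.09, and ADA2 and DPP4, the protein that anchors ADA at the cell surface, were at or near 0.

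Downstream of the receptors, 10 genes of G protein and adenylyl cyclase were tested. Of these, 1 rose and 1 fell, beside 6.16% and 6.11% of all genes tested, so nothing is read from the count. ADCY9 rose from 8.89 and 10.1 FPKM to 12.8 and 13.5 (log2 difference 0.43, limma adjusted p = 0.0383), and ADCY6 fell from 10.8 and 11.6 to 8.68 and 8.48 (-0.34, limma adjusted p = 0.0408). Both make cyclic AMP. The other 8 did not pass the threshold, among them GNAS (-0.03), which couples ADORA2B to adenylyl cyclase, and GNAI3 (0.04).

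**Figure D4:**
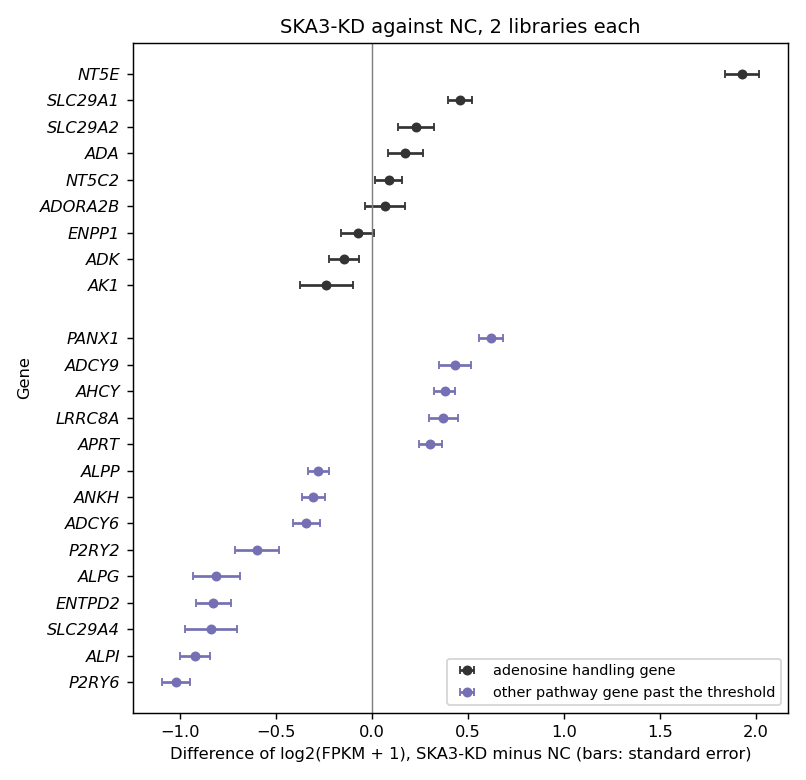
Difference of log2(FPKM + 1), SKA3-KD minus NC, with its standard error as a bar, for the 9 adenosine handling genes tested and the 14 other pathway genes past the threshold. NT5E is at 1.93 and SLC29A1 at 0.46, and below them the purple points run from 0.62 for PANX1 to -1.02 for P2RY6.

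The genes whose 4 values were most like those of NT5E were OLR1, AXL, GAS1, MZT1 and SEMA5A, by Euclidean distance between log2(FPKM + 1) values centred on each gene's own mean, over 4 libraries and 11254 genes. The distances were 0.470 for OLR1, 0.522 for AXL, 0.591 for GAS1, 0.675 for MZT1 and 0.678 for SEMA5A. OLR1, a receptor for oxidized lipoprotein, was at 10.8 and 11.6 FPKM in NC and at 38.8 and 31.4 in SKA3-KD. SEMA5A was closest to NT5E in level, at 2.08 and 1.76 FPKM in NC and 6.01 and 5.99 in SKA3-KD. With 4 libraries in 2 groups, likeness of this kind holds little beyond the size of the difference between the groups.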

How the data were processed

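RNA from 4 TU-177 libraries was measured. The authors deposited FPKM values per Ensembl gene, 28729 in all, of which 26504 were above 0. The submitters' processing notes name Bowtie2 2.2.8, HISAT2, StringTie 1.3.1, Cuffdiff 2.1.1 and the build hg19, without roles, and strand use is not given in the sources used here. FPKM is already divided by gene length and library size. Symbols, exon lengths and overlaps came from GENCODE 29 (GRCh38), by Ensembl identifier, with newer symbols where listed, and no coordinates of the table were used.

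Whole reads were sought as the gene length at which all 4 libraries give whole numbers (within 0.005), and 96.7% of the genes tested had them, 63.4% of these at the GENCODE 29 length. On simulated reads of 2000 genes, 99.4% of those with a mean of at least 20 reads came back exactly. The reads on genes summed to 106% to 108% of the library sizes. Replicates differed by more than sampling noise (chi-square per degree of freedom 4.03 in NC and 3.97 in SKA3-KD).

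SKA3-KD was compared with NC by limma 3.58.1 in R 4.3.3 (lmFit, eBayes with trend) on log2(FPKM + 1), over the 12645 genes averaging 1 FPKM or more, with Benjamini-Hochberg adjustment over all of them and a threshold of 0.05. Differences on this scale are smaller than the true ones for genes of low FPKM. The genes, lists and named genes (the 10 genes, SKA3, list genes past the threshold, the 2 highest of a list, and the 5 nearest to NT5E) were chosen with earlier results of these data known. ACP3, P2RY11, P2RX5, ADAL, ENTPD1, ENTPD8 and the low or absent genes were named after their values were seen. A gene that the naming rule includes is not reported here. Each of these was changed in turn: the pseudocount (0.1), the filter (none, or an average of 5 FPKM), the scaling (median of ratios, quantile), the trend (none), a replicate block, the test (limma voom on recovered reads) and the libraries (each left out). The tables and plots were made in Python 3.11.15 (pandas 2.3.3, scipy 1.17.1, matplotlib 3.10.9).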

Additional observations from a re-analysis of the deposited data

How the results depend on the processing

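SKA3 was lower in SKA3-KD under every setting, and past the threshold except without NC 1 or NC 2, with log2 differences of -1.14 to -1.04 when 1 library was left out. NT5E had a log2 difference of 1.93, and of 2.46 with a pseudocount of 0.1 and 2.54 with limma voom on the reads, which adds a smaller pseudocount. It was not tested at a mean FPKM of at least 5, being below it. The number of genes past the threshold, 1551, was 129 without the filter, 693 without the trend and 3211 with voom, and 0 to 181 with 1 library left out. Without NC 1 and without NC 2 it was 0 (limma, with 3124 and 3352 genes at an unadjusted p-value under 0.05). There the lone library of a group is assumed to vary like the others. Of the 14 list genes past the threshold, all kept it with a pseudocount of 0.1, both scalings and voom. The list count was 2 without the filter, 4 without the trend and 0 to 4 with 1 library left out, and none of the 14 changed sign. Of the 8 tested genes beside NT5E, SLC29A1 alone passed, and 0 did without the filter or with any library left out. The replicate number as a block, which the labels do not tie to a shared culture, gave 1967 genes, 15 list genes and SLC29A1 alone of the 8. Same-numbered libraries deviated together weakly (r = 0.0973 across genes). The order of the 10 genes by level kept 5 places in the SKA3-KD mean, 5 in SKA3-KD 1 and 4 in SKA3-KD 2. Genes of low FPKM are limited by depth, 1 read on 1 kilobase being worth 0.0836 to 0.111 FPKM.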

Other observations

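Of 6 enzymes that can release phosphate from AMP outside the cell, a set chosen after the values were seen, the alkaline phosphatases made up nearly all of the RNA. NT5E, ALPL, ALPP, ALPI, ALPG and ACP3 summed to 603 and 661 FPKM in the NC libraries and to 447 and 464 FPKM in the SKA3-KD libraries. NT5E was 0.228% and 0.209% of this sum in NC and 1.72% and 1.81% in SKA3-KD. The share of ALPI was 45.2% and 46.0% in NC and 32.5% and 34.0% in SKA3-KD, and that of ALPL was 31.2% in both NC libraries and 40.1% and 39.0% in SKA3-KD. RNA levels say nothing of the activity of these enzymes, which was not measured here, and ALPI, ALPP and ALPG may share reads.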
